A study of Mus musculus with 4 samples.

Results

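Interferon-stimulated genes are described here as a set of 39 genes out of 27998 in the count table, taken by symbol. The set holds 11 IFIT/OAS-type genes, 7 GBP/IRG-type genes, 4 transcription factors, 8 sensors and restriction factors and 9 other induced genes. Of the 39, 37 reached 200 unique molecular identifiers (UMIs, counted RNA molecules) over all cells, the minimum for reading a ratio. Mx1 with 84 UMIs and Gbp10 with 97 UMIs did not.

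Interferons are secreted alarm proteins. Type I and type III interferons act largely through the interferon-stimulated response element (ISRE), bound by a complex that holds STAT2 and IRF9, whereas interferon gamma acts mainly through the gamma-activated site (GAS) and through IRF1. IFIT and OAS family proteins, ISG15, viperin (Rsad2) and Mx1 act against viral RNA and viral replication and are classical type I targets, and guanylate-binding proteins (GBPs) and immunity-related GTPases (IRGs) attack the vacuoles of intracellular microbes and respond strongly to interferon gamma. In the thymus, low levels of interferon signalling are known to act on maturing T cells in the medulla.

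The sort gate was CD4+CD8-Thy1.1+GFP+, applied to thymus of B6 mice at 3 weeks of age to obtain regulatory T (Treg) cells, CD4 T cells defined by the transcription factor Foxp3. All animals carried a Foxp3-Thy1a reporter, which puts Thy1.1 on Foxp3-expressing cells, and Rag2-Gfp, whose GFP persists for a time in T cells that formed recently. There were 4 samples, IL2 o/o, IL15 o/o, IL2 wt/wt and IL15 wt/wt, 1 of each, where o/o is the knockout. The labels do not say how many animals went into a sample, and the study asked what IL-2 and IL-15 contribute to Treg development. Cell barcodes end in a suffix from 1 to 4, taken as libraries 1 to 4, and no label ties a suffix to a genotype. No genotype was therefore compared or inferred, and a difference between libraries has no replicate and no test.

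The libraries held 1609, 2452, 2037 and 2175 cells, with a median of 3857, 3640, 2501 and 3019 UMIs per cell, and 27 barcode sequences occurred in more than 1 library out of 8246. Library 3 stood apart from the other libraries in several measures that do not involve interferon genes. It was the shallowest, 0.540% of its cells were proliferating (5 or more UMIs of G2 and M phase genes) against 6.90% to 10.3% elsewhere, and Il2ra, the high-affinity chain of the IL-2 receptor, had a UMI in 6.82% of its cells against 32.2% to 39.4%. Of 10787 haemoglobin UMIs in the whole table, 10398 came from 1 cell of library 3. Foxp3 was at 12.6 to 14.3 counts per 1000000 UMIs (CPM) and Il2 at 30.2 to 42.7 CPM in all 4 libraries, and Il15 had 16 UMIs in total. A 3' tag can lie outside a deleted stretch, so these levels check no genotype.

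To show what the genes share in sequence, the 250 bases upstream of each RefSeq gene start (GRCm38.p6) were searched on both strands for the ISRE core, GAAA then any 2 bases then GAAA, and the GAS motif, TTC then any 3 bases then GAA. A window was given for 30 of the 39 genes. In 23 of these 30 the bases just after its start site occur near the beginning of an annotated GENCODE transcript, though not always at its first base. A gene with overlapping matches, or matches on both strands, counts once. The ISRE core was present in 15 of 30 genes, against 936 of all 27025 genes with a window (3.46%), and the GAS motif in 6 of 30 (20.0%), against 2197 (8.13%). Among IFIT/OAS-type genes, 6 of 9 held the ISRE core and 0 held GAS. Among GBP/IRG-type genes, 4 of 5 held the ISRE core and 2, Gbp7 and Igtp, held GAS as well. GAS was not particular to that type. Among sensors and restriction factors, 3 of 6 held it (Bst2, Eif2ak2 and Isg20), and 2 of 6 held the ISRE core. A match is a description of letters, not a bound site.

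The stretches around 1 match each are printed for the genes whose levels are compared most below, with the ISRE core (on either strand) in capitals, each read along its gene. Ifit1 is at chr19:34640770-34640809 (plus strand), Isg15 at chr4:156200866-156200905 (minus strand), Ifit3 at chr19:34583358-34583397 and Ifit3b at chr19:34607754-34607793 (both plus strand), Gbp2 at chr3:142620589-142620628 and Igtp at chr11:58199507-58199546 (both plus strand). The Ifit3 and Ifit3b stretches are letter for letter the same. The bases after their start sites, and after that of Gbp7 below, were not found near the beginning of an annotated GENCODE transcript.
Ifit1: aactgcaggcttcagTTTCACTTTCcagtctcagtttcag
Isg15: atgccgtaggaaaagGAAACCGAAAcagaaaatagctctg
Ifit3: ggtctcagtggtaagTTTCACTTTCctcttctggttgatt
Ifit3b: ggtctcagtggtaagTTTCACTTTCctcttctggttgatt
Gbp2: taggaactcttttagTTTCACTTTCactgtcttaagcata
Igtp: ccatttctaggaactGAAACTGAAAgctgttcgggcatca

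The GAS motif is in capitals in the next 3 stretches, which show the motif in 2 GBP/IRG-type genes and in Irf1, the transcription factor that carries interferon gamma signals to many of them. They are at chr3:142530215-142530253 for Gbp7, chr11:58199496-58199534 for Igtp and chr11:53769909-53769947 for Irf1, all on the plus strand.
Gbp7: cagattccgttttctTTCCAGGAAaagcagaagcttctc
Igtp: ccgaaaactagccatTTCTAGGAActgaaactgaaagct
Irf1: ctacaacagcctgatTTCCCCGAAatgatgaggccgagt

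Ifit1, Ifit3, Ifit3b and Ifit1bl1 lie in 1 cluster on chromosome 19 between 34583531 and 34650009 (GRCm38). Gbp2 and Gbp7 are both on chromosome 3, between 142530342 and 142638008. The longest annotated Ifit3 and Ifit3b transcripts were 98.0% identical over 1697 aligned bases, so the split of UMIs between these 2 genes is uncertain. Ifit1 and Ifit1bl1 transcripts were 73.0% identical over 2047 aligned bases.

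Among the libraries, the GBP/IRG-type genes were much higher in library 3 than in the other libraries, whereas the IFIT/OAS-type genes were about equally high in libraries 3 and 4. Summed over the 7 GBP/IRG-type genes, libraries 1 to 4 had 475, 521, 1183 and 612 CPM. Summed over the 11 IFIT/OAS-type genes they had 471, 480, 650 and 647 CPM. The highest library was 2.49-fold the lowest for GBP/IRG-type genes and 1.38-fold for IFIT/OAS-type genes, and libraries 3 and 4 were close in the IFIT/OAS-type sum (exact Poisson 95% intervals 629 to 671 and 629 to 664 CPM). All intervals here cover counting error only, and expression that varies between cells makes them too narrow.

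Of the interferon-stimulated genes, 11 of 37 were at least 2-fold higher in their highest than in their lowest library, including 5 of 6 GBP/IRG-type genes and 2 of 10 IFIT/OAS-type genes, beside 630 of all 8071 genes with 200 or more UMIs (7.81%). In all 11 the highest library was library 3, a pattern found in 2.61% of all genes. At any fold, library 3 was the highest for 28 of the 37 genes and for 3220 of all 8071 genes. The median ratio of highest to lowest library was 2.61 for GBP/IRG-type genes, 1.66 for IFIT/OAS-type genes and 1.32 for all genes.

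Iigp1, an IRG that loads onto parasite vacuoles, had 18.3, 23.9, 137 and 24.8 CPM in libraries 1 to 4, a 7.51-fold range. Gbp2, a guanylate-binding protein, had 32.6, 33.1, 130 and 45.8 CPM, a 3.99-fold range. In both, library 3 lay far above libraries 1, 2 and 4. Igtp, a regulatory IRG, had 123, 141, 305 and 154 CPM, and Gbp7 had 42.6, 37.9, 104 and 62.9 CPM. Irgm1, an IRG that protects host membranes, had 67.7, 67.9, 142 and 77.4 CPM, and Ifi47, a further IRG, had 190, 216, 355 and 246 CPM, the smallest range of the 6 tested genes (1.87-fold). Library 3 was the highest for each of these 6 genes, and also for Gbp10 with 9.79 CPM against 1.27 to 1.69 CPM.

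The IFIT/OAS-type genes followed another order. Ifit1, which binds RNA that lacks the host cap methylation, had 131, 121, 151 and 167 CPM in libraries 1 to 4. Isg15, a ubiquitin-like modifier, had 163, 184, 217 and 233 CPM. Both were highest in library 4, as were Ifit3b, Oasl1, Rsad2 and Cmpk2 (a nucleotide kinase beside Rsad2), whose highest levels ran from 10.5 to 18.0 CPM. Ifit3 had 45.6, 41.6, 62.4 and 56.9 CPM, and Usp18, the protease that removes ISG15 and damps the interferon receptor, had 51.3, 48.2, 78.5 and 65.9 CPM. Among the 10 IFIT/OAS-type genes with enough UMIs for reading a ratio, 2 had at least a 2-fold range, Ifit1bl1 and Oasl2. Ifit1bl1 had 20.4, 26.1, 46.5 and 36.1 CPM and Oasl2 had 21.2, 19.2, 40.8 and 25.6 CPM, and library 3 was highest in both. Mx1, with 84 UMIs too few for reading a ratio, had 1.65, 2.31, 2.80 and 3.47 CPM and was highest in library 4.

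Of the transcription factors, Irf1 had 82.0, 97.3, 208 and 90.4 CPM and Stat2 had 9.63, 11.6, 21.5 and 11.4 CPM. Irf7, the amplifier of type I interferon production, had 129, 144, 214 and 165 CPM, and Irf9, the DNA-binding partner of STAT2, had 113, 115, 152 and 119 CPM. All 4 were highest in library 3, by 2.54-fold over the lowest library for Irf1 and by 1.35-fold for Irf9.

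**Figure D1:**
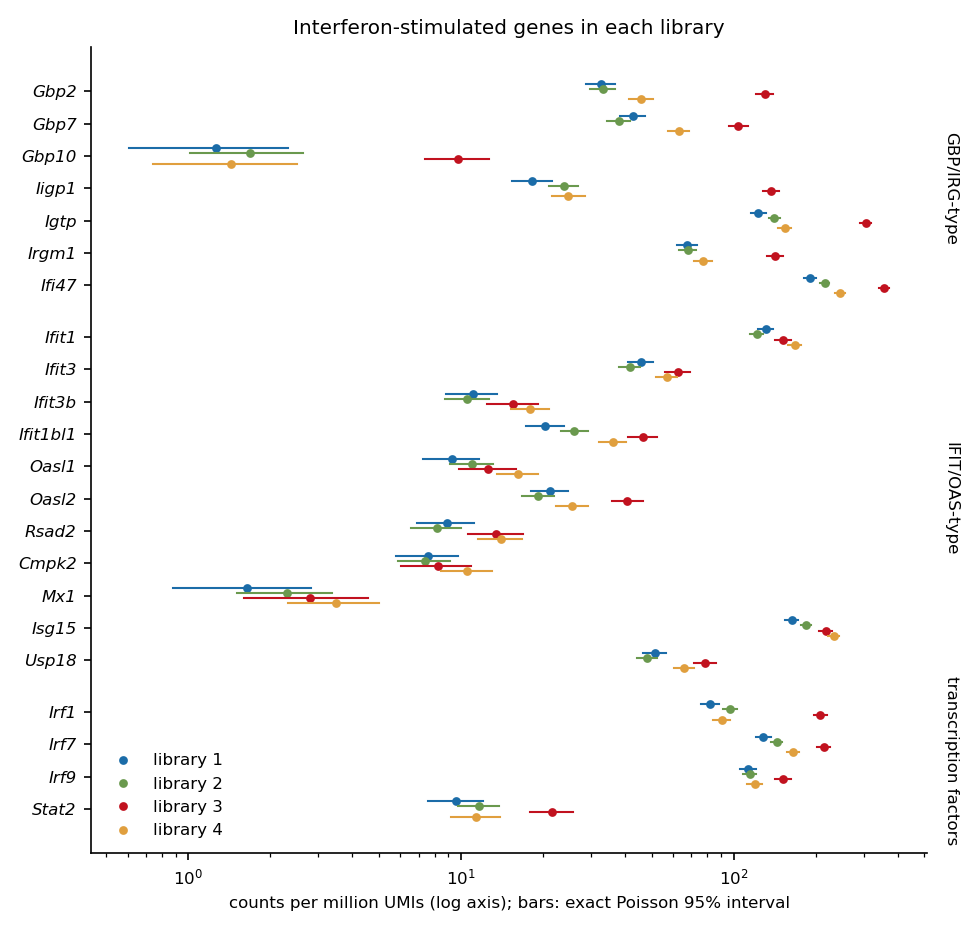
Level of each GBP/IRG-type gene, IFIT/OAS-type gene and transcription factor in libraries 1 to 4, in counts per 1000000 UMIs on a log axis, with points for the level and bars for the exact Poisson 95% interval. Library 3 lies to the right of the other libraries for all 7 GBP/IRG-type genes and for Irf1, and near library 4 for most IFIT/OAS-type genes.

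The sensors and restriction factors had narrower ranges, at most 1.87-fold, with 0 of 8 reaching 2-fold. Zbp1, a sensor of left-handed nucleic acid, was at the top of this range with 120, 126, 225 and 151 CPM. Bst2 (tetherin, which holds virions at the cell surface) had 183, 195, 246 and 215 CPM, Ifitm3, which blocks viral entry, had 28.1, 26.4, 48.3 and 35.5 CPM, and Ifih1 (MDA5), Eif2ak2 (PKR), Isg20, Rtp4 and Trim30a had ranges of at most 1.52-fold. In the other induced genes, Samd9l (26.5, 25.1, 58.1 and 42.5 CPM) and Slfn5 (21.5, 22.6, 44.4 and 32.9 CPM) passed 2-fold. Parp9, Parp14, Dtx3l, Xaf1, Slfn2 and Ifi203 had ranges of at most 1.85-fold, each highest in library 3. Ifi27l2a, which encodes a small interferon-induced protein, had the most UMIs of the set (94251) and a UMI in 96.3% of cells. It had 2763, 2689, 2559 and 3294 CPM and was the only one of the 39 genes that was lowest in library 3.

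More cells of library 3 carried GBP/IRG-type RNA, and those cells carried more of it. With every cell thinned to 1811 UMIs and shallower cells left out (1557, 2317, 1622 and 1951 cells kept), 18.4% of library 3 cells had an Iigp1 UMI (exact Clopper-Pearson 95% interval 16.5 to 20.3), against 4.05%, 4.36% and 5.13% in libraries 1, 2 and 4. Without thinning the shares were 23.1% in library 3 against 5.97%, 7.50% and 7.49%. For any GBP/IRG-type gene the thinned share was 53.3%, 54.5%, 73.3% and 61.0% in libraries 1 to 4, and the cells with a UMI held on average 1.88, 1.97, 3.18 and 2.11 of them. For any IFIT/OAS-type gene it was 40.8%, 41.7%, 49.8% and 47.3%, with averages of 2.44, 2.60, 2.56 and 2.93 UMIs. Cells with 3 or more UMIs of double-positive thymocyte genes (Dntt, Rag1, Cd8a and Cd8b1), an earlier thymic stage, numbered 96 (median 2355.5 UMIs). Thinning kept 68 of them. Of these, 2.94% had Iigp1 (interval 0.358 to 10.2) and 17.6% had any IFIT/OAS-type gene (interval 9.47 to 28.8). No cell type in these libraries is known to lack these genes, so free RNA was not measured for them.

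The higher GBP/IRG-type level of library 3 was also seen in comparable cells. Among cells of the G1 table with at least 2000 and under 3000 UMIs, no Il2ra UMI and under 5 UMIs of G2 and M phase genes (263, 440, 757 and 526 cells), the GBP/IRG-type sum was 775, 775, 1458 and 823 CPM, a 1.88-fold range. Iigp1 was at 46.2, 54.3, 173 and 45.8 CPM and Gbp2 at 58.5, 58.8, 173 and 51.1 CPM in these cells. The IFIT/OAS-type sum was 704, 884, 783 and 923 CPM, with library 3 between the others, and Ifit1 was at 268, 286, 184 and 278 CPM, with library 3 lowest. The choice of these cells was made after the libraries' levels had been seen. Irf1 was at 173, 156, 244 and 123 CPM, and Irf9 at 188, 193, 192 and 160 CPM.

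Neighbouring genes of the pathway from lists beyond the 39 showed a similar division between the types among genes with 200 or more UMIs. Of 13 further GBP/IRG-type genes with 200 or more UMIs, 9 were at least 2-fold higher in their highest than in their lowest library, beside 7.81% of all genes. This list is wider than its name and also holds Nlrc5, Psmb8, Psmb9 and Tap1, which are neither GBPs nor IRGs. Of these, Nlrc5 (2.18-fold) counts among the 9. The highest library was library 3 in all 13, beside 3220 of all 8071 genes. Tgtp1 (19.5, 23.9, 109 and 37.6 CPM) and Tgtp2 (33.7, 35.9, 146 and 63.1 CPM), both IRGs, had the widest ranges, and Gbp4 had 31.4, 30.7, 101 and 40.8 CPM. Psmb8 (671, 765, 862 and 760 CPM) and Psmb9 (218, 233, 307 and 246 CPM), subunits of the immunoproteasome, and Tap1 (188, 209, 264 and 198 CPM), a peptide transporter, stayed below 2-fold. Of 12 further IFIT/OAS-type genes with 200 or more UMIs, 1 reached 2-fold, or 8.33%, near the share of all genes. It was Oas1a, with 4.06, 3.90, 10.1 and 9.22 CPM. Library 3 was the highest for 6 of these 12 genes and library 4 for the other 6. Below 200 UMIs, Oas3 (166 UMIs, 2.22-fold), Ifi44 (59 UMIs, 7.73-fold) and Oas2 (47 UMIs, 4.23-fold) passed 2-fold, each highest in library 3. Ifit1bl2 (37 UMIs, 1.49-fold) did not, and Oas1g had 2 UMIs. Tgtp1 and Tgtp2 are near-identical copies, so the split of UMIs between them is uncertain.

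The receptor chains for type I interferon and interferon gamma had ranges of at most 1.33-fold between libraries, near the median of all genes. Ifnar1 was at 74.3 to 85.9 CPM, Ifnar2 at 55.1 to 70.7 CPM, Ifngr1 at 161 to 213 CPM and Ifngr2 at 70.7 to 93.2 CPM. Irf8, a transcription factor of the same family as Irf1, was at 33.7, 35.4, 99.7 and 29.1 CPM. The interferon genes on the list had 9 UMIs in all cells together, 8 of them Ifng, and the rest were at or near 0 at this depth.

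Markers of other cell types were compared by library as well, and their part in the library pattern was not tested. The dendritic cell list summed to 153, 163, 346 and 165 CPM, and it was higher in library 3 through Irf8, Cd74, Ccr9 and Ly6d, while Siglech, Itgax, Flt3 and Clec9a had 0 UMIs in every library. The macrophage list summed to 1.01, 2.57, 5.42 and 1.08 CPM and the B cell list to 21.4, 16.1, 10.8 and 15.8 CPM, with Csf1r, Cd14 and Pax5 at 0. The double-positive thymocyte list summed to 113, 116, 185 and 169 CPM, highest in library 3. The list for natural killer (NK), NKT and gamma delta T cells summed to 277, 233, 63.3 and 182 CPM, lowest in library 3. The erythroid list was at 1879 CPM in library 3 against 0 to 6.21 CPM, nearly all of it from 1 cell. Library 3's haemoglobin-rich cell was outside the G1 table, and within the G1 table the GBP/IRG-type sum was 511, 553, 1208 and 647 CPM.

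All 4 libraries also shared a gradient with sequencing depth. Cells of each library were split by UMIs into 5 depth bins of equal size. From the shallowest to the deepest bin (median 1816 to 7348 UMIs) the GBP/IRG-type sum was 916, 904, 809, 661 and 434 CPM and the IFIT/OAS-type sum was 753, 823, 679, 587 and 345 CPM. Proliferating cells made up 1.09% of the shallowest and 26.8% of the deepest bin. In library 3 the GBP/IRG-type sum lay between 771 CPM, in the deepest bin, and 1521 CPM, against 338 to 881 CPM over all bins of the other libraries. Depth here combines RNA content and sequencing, and their parts in the gradient were not tested. All ratios between cell groups below were therefore taken within library and within depth bin.

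**Figure D2:**
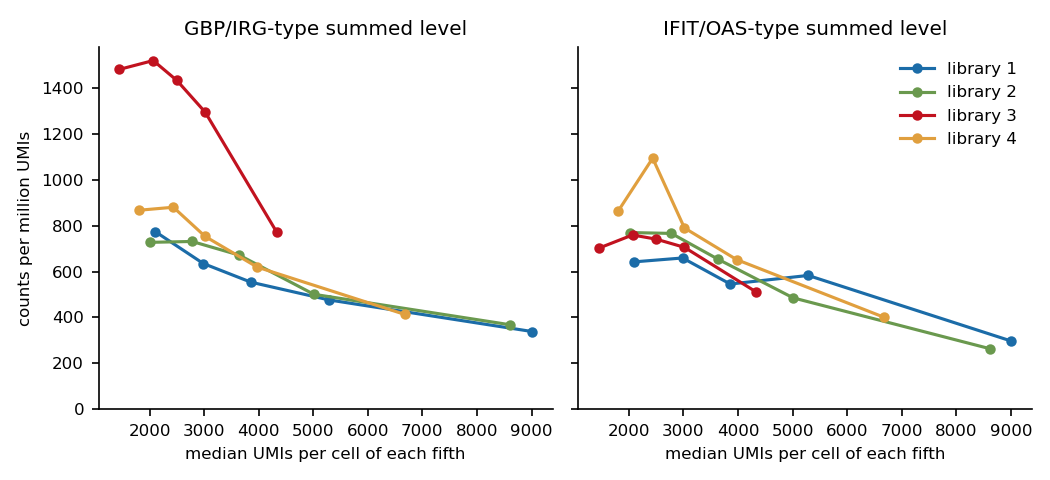
Summed level of the GBP/IRG-type genes (left) and the IFIT/OAS-type genes (right) in counts per 1000000 UMIs, against the median UMIs per cell of each depth bin, with 1 line per library. Both sums are lowest in the deepest bin of every library, and library 3 is set apart in the left panel and not in the right.

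The IFIT/OAS-type genes were unevenly spread over cells. The 1% of cells with the highest IFIT/OAS-type level in each library (85 cells) held 13.3% of all IFIT/OAS-type UMIs, or 14.7%, 13.8%, 12.8% and 12.3% in libraries 1 to 4. The 1% of cells with the highest GBP/IRG-type level held 5.56% of GBP/IRG-type UMIs, and the corresponding shares for transcription factors, sensors and other induced genes were 3.87%, 5.81% and 2.81%. After thinning, the IFIT/OAS-type and GBP/IRG-type shares were 15.1% and 7.80%. These cells were picked by the genes themselves, so the shares describe how uneven each sum was and test nothing. At the other end, 40.6% of cells had 0 IFIT/OAS-type UMIs and 22.6% had 0 GBP/IRG-type UMIs.

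Gene by gene, cells were ranked on the IFIT/OAS-type sum without the gene in question. For Ifit3 and Ifit3b the near-identical other copy stayed in that sum, which may therefore still hold UMIs of the gene itself. The top 1% then held 31.0% of Mx1 UMIs (26 of 84), 24.3% of Ifit3b, 23.9% of Rsad2, 21.6% of Cmpk2, 16.2% of Ifit3, 12.4% of Ifit1 and 9.51% of Isg15 UMIs. Shares were lower for Oasl1 (9.41%), Usp18 (9.24%), Oasl2 (7.58%) and Ifit1bl1 (7.05%). The median over all genes was 0.737%. Outside the IFIT/OAS-type genes, the same cells held 11.3% of Ifitm3, 8.49% of Slfn5 and 6.74% of Isg20 UMIs. With all libraries pooled they held 5.27% of Iigp1 UMIs and 2.06% to 4.53% for the other GBP/IRG-type genes. For Iigp1 the share was 17.4%, 5.58%, 2.30% and 7.73% in libraries 1 to 4, and the pooled share rested on library 3, which had 784 of 1404 Iigp1 UMIs. Without library 3, left out after the shares by library had been seen, it was 9.03% for Iigp1 and 3.33% to 5.12% for the other GBP/IRG-type genes, beside a median of 0.699% over all genes. The pooled share was 1.92% for Irf1, 1.56% for Irf9 and 1.27% for Ifi27l2a. Of the 85 cells with the highest IFIT/OAS-type level, 15 were also among the 85 with the highest GBP/IRG-type level. Each group is the top 1% of cells of each library, so unrelated groups would share about 1% of their cells.

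Across single cells thinned to the same depth, the 2 sums were positively correlated in every library. Spearman's rho between them was 0.269, 0.316, 0.380 and 0.335 in libraries 1 to 4 (1557, 2317, 1622 and 1951 cells). For the other pairs of the 5 lists, rho ran from 0.168 (GBP/IRG-type and transcription factors, library 1) to 0.419 (IFIT/OAS-type and other induced genes, library 3). Thinned cells had a median of 0 IFIT/OAS-type and 1 GBP/IRG-type UMIs, and such low counts limit how high rho can be. The cells of a library share its free RNA and its handling, and these values are given as a description.

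**Figure D3:**
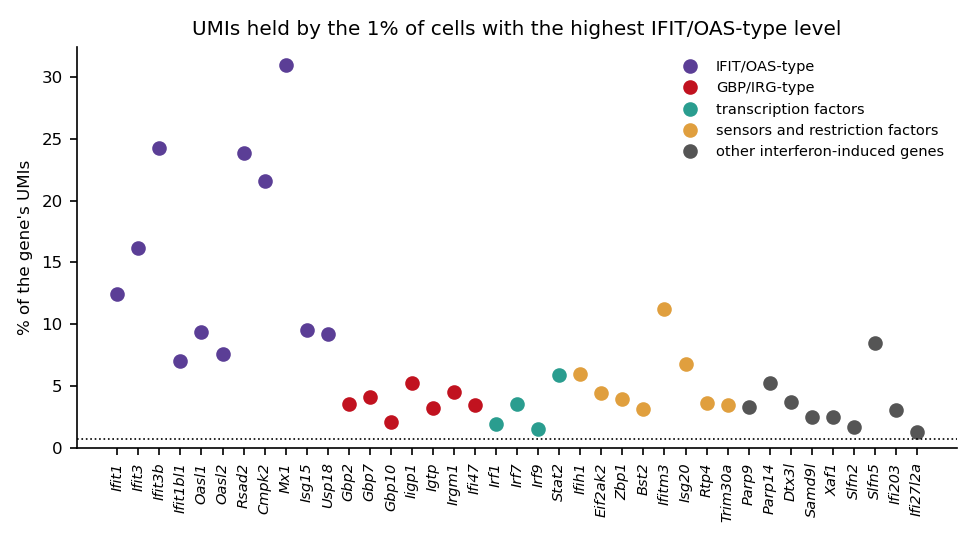
Percent of each gene's UMIs that were held by the 1% of cells with the highest IFIT/OAS-type level, the gene itself left out of the ranking where it is IFIT/OAS-type, with the median over all genes as a dotted line. The 4 libraries are pooled. Mx1, Ifit3b, Rsad2 and Cmpk2 lie between 21.6% and 31.0%, and the other IFIT/OAS-type genes between 7.05% and 16.2%. All GBP/IRG-type genes lie at or below 5.27%, or 9.03% without library 3.

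S1pr1, the receptor that lets mature T cells leave the thymus, had a UMI in 51.4%, 52.1%, 41.9% and 45.8% of cells of libraries 1 to 4. Outside the 96 double-positive-marker cells it had one in 48.3% of cells, against 9.38% of those 96. After thinning the shares were 30.8% and 2.94% (68 double-positive-marker cells kept), so detection of S1pr1 lay above that background. A gene was called where its log2 ratio was at least 0.32 in size and had the same sign in all 4 libraries. No interferon-stimulated gene was called in cells with S1pr1. Of the 37 tested, 0 were called higher and 0 lower, beside 3.15% of all genes called higher and 6.73% called lower. At 1.5-fold the counts were again 0 and 0, beside 0.322% and 2.17% of all genes.

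The IFIT/OAS-type sum was 556 CPM in cells with S1pr1 and 543 CPM in cells without it (log2 ratio 0.04, 95% counting interval -0.01 to 0.08). The GBP/IRG-type sum was 647 CPM with S1pr1 and 649 CPM without it (-0.00, interval -0.04 to 0.04). The median log2 ratio of the 37 genes was 0.10 and that of all genes 0.00, with 29 genes above zero and 8 below. Stat2 had the highest ratio (14.2 CPM with S1pr1, 11.4 CPM without, log2 ratio 0.32, negative in library 1), followed by Ifit1bl1 (34.1 and 27.6 CPM, 0.30) and Slfn5 (31.3 and 26.0 CPM, 0.27). Isg15 had the lowest (185 CPM with S1pr1, 208 CPM without, -0.16). Irf7 was at 0.17, Irf9 at 0.15 and Irf1 at -0.04. Ifit1 was at -0.01 and -0.05 in libraries 1 and 2 but 0.29 and 0.20 in libraries 3 and 4.

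The counts were different in thinned cells, where the UMIs, the scoring of S1pr1 and the cells kept all changed together. When every cell was thinned to 1811 UMIs and S1pr1 was scored again, 7 of the genes were called higher (Ifit3, Slfn5, Oasl2, Zbp1, Ifit1, Iigp1 and Stat2, log2 ratios 0.33 to 0.48). The thinned IFIT/OAS-type sum was at 0.24 and the GBP/IRG-type sum at 0.18, with the median of all genes at -0.00. Over all libraries, cells with S1pr1 had higher G2 and M phase genes (median log2 ratio 0.69) and lower double-positive thymocyte genes (median -1.49). In library 3 the G2 and M phase sum went the other way, with 69.2 CPM in cells with S1pr1 and 157 CPM in cells without it, against 1174 and 785, 1525 and 742, and 1056 and 755 CPM in libraries 1, 2 and 4. Proliferating cells were 9.43%, 11.7%, 0.117% and 6.52% of cells with S1pr1 and 6.91%, 8.77%, 0.845% and 7.22% of cells without it in libraries 1 to 4. The part of either list in the thinned values was not tested. Of 44 further pathway genes tested, beside 3.15% of all genes called higher and 6.73% called lower, 3 were called higher, namely Socs3 (0.60), Oas1a (0.42) and Irgm2 (0.34), and Irf8 was called lower (33.1 CPM with S1pr1, 55.3 CPM without, -0.74).

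Il2ra had a UMI in 39.2%, 39.4%, 6.82% and 32.2% of cells of libraries 1 to 4. After thinning, 18.4% of other cells had a UMI against 16.2% of double-positive-marker cells (interval 8.36 to 27.1), with unthinned shares of 29.6% and 20.8% at a median of 3145 and 2355.5 UMIs. This background rests on few cells in each library. Unthinned, Il2ra had a UMI in 623 of 1596, 963 of 2430, 135 of 2011 and 696 of 2140 other cells of libraries 1 to 4, against 7 of 13, 4 of 22, 4 of 26 and 5 of 35 double-positive-marker cells. Other cells lay above the background of their own library in library 2 (39.6% against 18.2%) and library 4 (32.5% against 14.3%), and below it in libraries 1 and 3. After thinning, the share of other cells was 22.3%, 23.1%, 5.04% and 20.9%, each within the 95% interval of its library's background. The comparison therefore sets cells with an Il2ra UMI against cells without one, and not expressing against non-expressing cells.

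In cells with Il2ra, 2 of the 37 interferon-stimulated genes were called higher and 2 lower. These counts were near the shares of all genes, 5.06% called higher and 4.13% called lower. At 1.5-fold 0 were called either way, beside 1.5% and 0.843% of all genes. Igtp was at 164 CPM with Il2ra and 129 CPM without it (log2 ratio 0.35, interval 0.25 to 0.44), and it was higher in all 4 libraries, by 0.30, 0.45, 0.22 and 0.31. Ifitm3 was at 34.1 CPM with Il2ra and 27.1 CPM without it (0.33, interval 0.13 to 0.53). This call for Ifitm3 held in 9 of 16 settings and ended, for example, without proliferating cells (0.16), with each cell weighted alike (0.25), without the highest IFIT/OAS-type cells (0.28) and without double-positive-marker cells (0.29). Rsad2 was at 7.59 and 10.7 CPM (-0.50, interval -0.88 to -0.11) and Ifit3b at 10.6 and 13.5 CPM (-0.36, interval -0.68 to -0.03), in cells with and without Il2ra. Without library 2, Igtp (0.29), Ifitm3 (0.19) and Ifit3b (-0.29) were no longer called.

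The medians of both types had opposite signs here over all libraries, though not in library 2, a difference that was not tested. The median log2 ratio was -0.20 over 10 IFIT/OAS-type genes, with 9 of 10 below zero, and 0.07 over 6 GBP/IRG-type genes, beside -0.01 over all genes. In libraries 1 to 4 the medians were -0.07, -0.29, -0.50 and -0.21 for IFIT/OAS-type genes. They were 0.08, -0.05, 0.00 and 0.18 for GBP/IRG-type genes. The further lists had medians nearer to each other, -0.06 for IFIT/OAS-type and 0.00 for GBP/IRG-type genes. The IFIT/OAS-type sum was 497 CPM with Il2ra and 528 CPM without it (-0.09, interval -0.14 to -0.04), at 0.14, -0.19, -0.36 and -0.09 in libraries 1 to 4. The GBP/IRG-type sum was 575 CPM with Il2ra and 537 CPM without it (0.10, interval 0.05 to 0.15), at 0.08, 0.08, 0.04 and 0.17. Among the other genes, Oasl1 was at -0.54 but not in the same direction in library 1, Ifit3 and Slfn5 at -0.31, Samd9l at -0.23, Rtp4 at -0.17, Irf9 at -0.16, Irf7 at -0.06, Irf1 at 0.01 and Ifi203 at 0.16. Without the split by depth, 19 genes were called lower and the IFIT/OAS-type sum was at -0.42, with a median of 4411 UMIs in cells with Il2ra and 2783 UMIs in cells without it. The 19 included the GBP/IRG-type genes Gbp2 (-0.43), Irgm1 (-0.47) and Iigp1 (-0.47), while Igtp was at 0.06.

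Of the 44 pathway genes, 5 were called higher and 1 lower in cells with Il2ra, beside 5.06% and 4.13% of all genes. Socs1, a brake on interferon signalling that IL-2 is also known to induce, was at 108 CPM with Il2ra and 78.0 CPM without it (0.48), Socs3 at 14.0 and 9.19 CPM (0.61), and Irf8 at 47.9 and 28.7 CPM (0.74). Gbp5 (0.53) and Gbp3 (0.52) were called higher and Gbp9 lower (-0.40). Ptpn2 (0.11) and Ptpn6 (0.15), phosphatases that act on this pathway, and Gbp8 (-0.40) were not called.

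**Figure D4:**
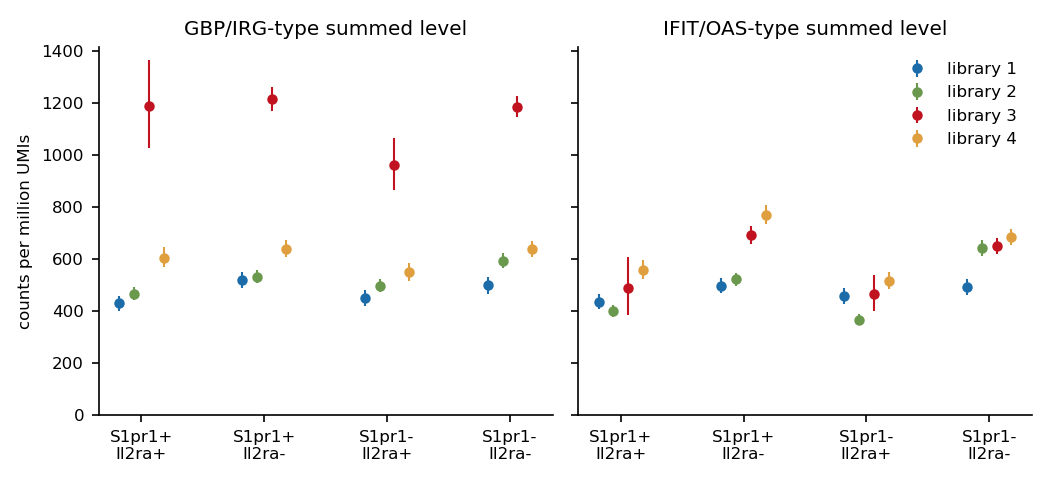
Summed level of GBP/IRG-type genes (left) and IFIT/OAS-type genes (right) in counts per 1000000 UMIs, in cells grouped by a UMI of S1pr1 and of Il2ra, with points for libraries 1 to 4 and bars for exact Poisson 95% intervals. Library 3 lies at 964 to 1215 CPM in all 4 classes of the left panel, above every other point, and these levels are not split by depth.

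Grouping cells by both receptors left the library pattern in place. Without a split by depth, the GBP/IRG-type sum in libraries 1 to 4 was 430, 466, 1189 and 606 CPM in cells with both, 520, 532, 1215 and 641 CPM with S1pr1 alone, 451, 498, 964 and 549 CPM with Il2ra alone and 499, 594, 1187 and 637 CPM with neither. Library 3 was highest in every class, although it had 50 cells with both receptors and 89 with Il2ra alone. In libraries 1 to 4 the IFIT/OAS-type sum was 436, 399, 488 and 559 CPM in cells with both, 498, 523, 693 and 770 CPM with S1pr1 alone, 459, 368, 465 and 517 CPM with Il2ra alone and 491, 643, 650 and 685 CPM with neither. Cells with S1pr1 alone had a lower sum than cells with neither in library 2 and a higher one in libraries 1, 3 and 4.

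The deposited normalized table names its 7231 cells as G1 cells, which leaves 1042 cells outside it, or 13.2%, 14.1%, 12.4% and 10.7% of libraries 1 to 4. Cells outside the G1 table had lower levels of many interferon-stimulated genes. Of the 37 genes, 10 were called lower and 0 higher, beside 9.85% of all genes called lower and 11.3% called higher. At 1.5-fold 4 were called lower (Slfn5, Ifit1, Iigp1 and Oasl2) and 0 higher, beside 3.11% and 6.31% of all genes. The median log2 ratio was -0.28 over the 37 genes and -0.03 over all genes, and 32 of 37 were below zero.

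Both sums were lower outside the G1 table. The IFIT/OAS-type sum was 367 CPM outside and 485 CPM in the G1 table (-0.40, interval -0.47 to -0.33), and the GBP/IRG-type sum was 445 CPM outside and 576 CPM inside (-0.37, interval -0.44 to -0.31). Slfn5, a Schlafen family gene, had the largest difference, with 9.44 CPM outside and 23.4 CPM in the G1 table (-1.31, interval -1.74 to -0.88). In libraries 1 to 4 Slfn5 was at 6.68, 7.79, 23.8 and 8.68 CPM outside and at 14.4, 20.0, 45.8 and 28.4 CPM inside, lower outside in each library. Ifit1 was at 72.3 CPM outside and 122 CPM inside (-0.75), but in library 3 it was at 153 CPM outside and 160 CPM inside. Its call ended under several filters, for example at -0.69 once cells under 500 genes or over 10% mitochondrial UMIs were dropped, since its sign was then not the same in every library. Iigp1 was at 20.5 CPM outside and 33.8 CPM inside (-0.72), and Oasl2 at 14.2 CPM outside and 21.8 CPM inside (-0.62).

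The remaining genes called lower were Ifit3 (-0.42), Isg20 (-0.41), Ifi47 (-0.40), Zbp1 (-0.39), Irgm1 (-0.37) and Igtp (-0.36). Irf1 and Irf7 were both at -0.32 and Gbp2 was at -0.27, each short of a call. Ifi27l2a was at 3131 CPM outside and 2629 CPM inside (0.25), and Stat2 at 13.9 CPM outside and 10.5 CPM inside (0.40, interval 0.01 to 0.79), which was lower outside in library 1 alone. Of the 44 pathway genes, 7 were called lower and 1 higher outside the G1 table, beside 9.85% and 11.3% of all genes. Tgtp1 (-0.77), Gbp9 (-0.54) and Tgtp2 (-0.53) were among the lower genes, together with Gbp8, Gbp3, Gbp4 and Socs1, and Ifnar2, a chain of the type I receptor, was at 94.9 CPM outside and 56.1 CPM inside (0.76).

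The G1 comparison moved with proliferation. Proliferating cells were 38.8% of cells outside the G1 table and 1.95% of cells in it, but in library 3 they were 3.56% outside, where cells had a median of 1470 UMIs and 4.71% mitochondrial UMIs. Without proliferating cells the IFIT/OAS-type sum was at -0.20 and no longer called, as were Ifit1 at -0.32, Ifit3 at -0.20, Igtp at -0.29 and Isg20 at -0.08. In the same cells Irf1 (-0.34), Rtp4 (-0.43) and Slfn2 (-0.36) were newly called lower and Parp14 (0.35) higher, so that 9 genes were called lower in place of 10. Without library 3 the IFIT/OAS-type sum was at -0.44 and the GBP/IRG-type sum at -0.34, and Irgm1 (-0.28) was no longer called. Isg20 (-0.31) lost its call without library 2 and Zbp1 (-0.31) without library 4.

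**Figure D5:**
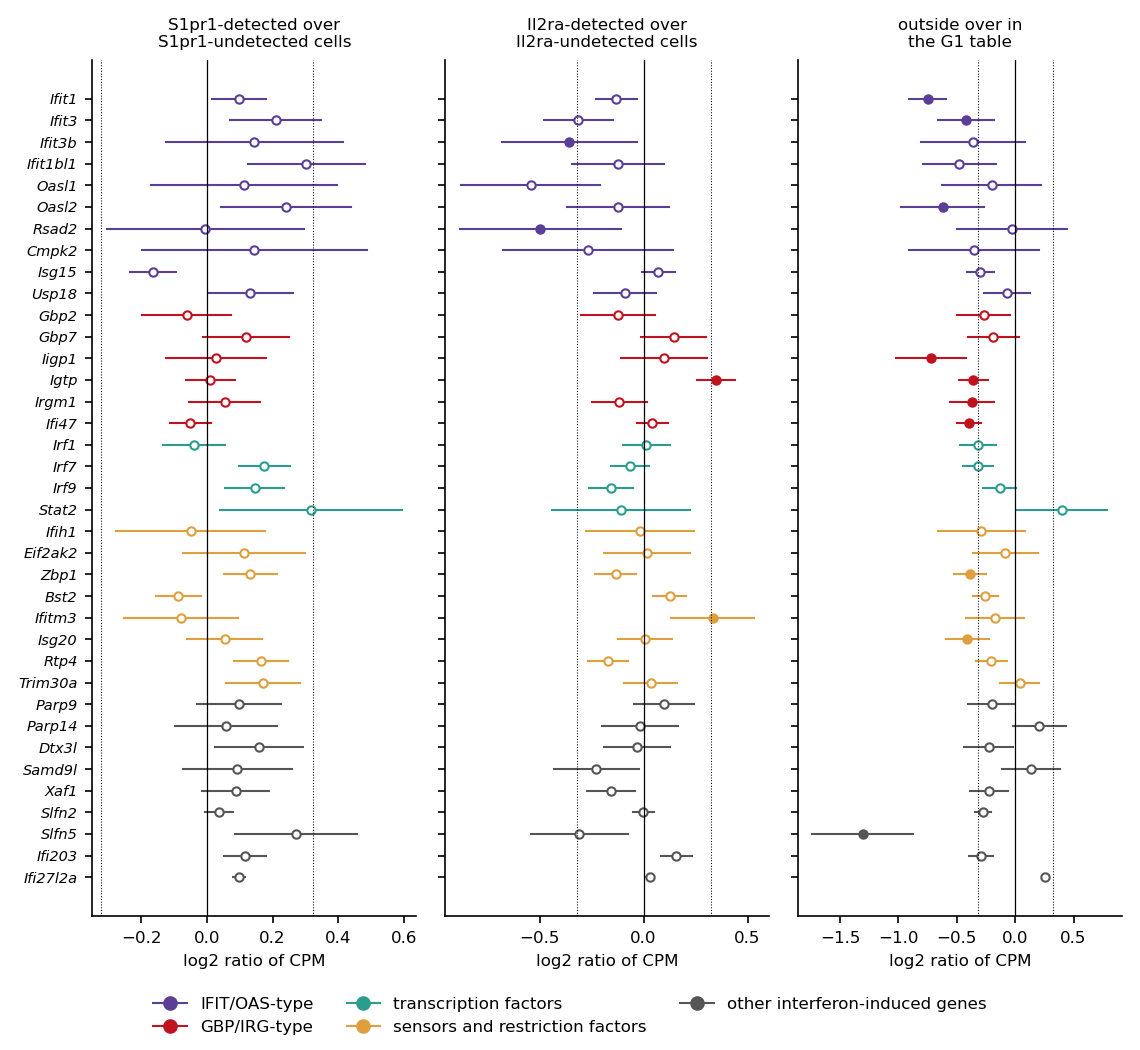
Log2 ratio of counts per 1000000 UMIs for the 37 genes with 200 or more UMIs in cells with over cells without an S1pr1 UMI (left), with over without an Il2ra UMI (middle), and outside over in the G1 table (right), with 95% counting intervals and each panel on its own scale. Filled points are called genes and dotted lines mark a log2 ratio of 0.32 in either direction, and called genes number 0, 4 and 10 from left to right.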

How the data were processed

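Single-cell 3' RNA of 4 sorted Treg samples was analysed. The deposited count table holds whole UMI counts of 27998 genes in 8273 cells. The authors also deposited log2 values of 9571 genes in 7231 cells named as G1. These equal log2(count / factor + 1), with 1 factor for each cell (0.168 to 5.68), within a relative 1.1e-14. The submitters' processing notes name the mm10 build, Cell Ranger 2.0.2, CASAVA 2.20 and R 3.4.1. Not given in the sources used here are the filter on cells and the way G1 cells were chosen.

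Symbols came from GENCODE M21 for 27722 identifiers. Libraries held 5717732 to 11274713 UMIs, and cells 795 to 32737. CPM are summed UMIs per 1000000, with exact Poisson 95% intervals, and shares have exact Clopper-Pearson intervals. Ratios between cell groups are Mantel-Haenszel ratios over library and 5 bins of UMIs per cell, with Greenland-Robins intervals, for all 8071 genes with at least 200 UMIs. The CPM printed beside a ratio are standardised to the same strata, so they differ between comparisons. Cells are not replicates and each genotype had 1 sample, so no p-value was computed. The method was tested on simulated data. No doublet caller was run, and leaving out the 2% of cells with the most UMIs stood in for it.

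Named genes are all IFIT/OAS-type, GBP/IRG-type and transcription factor members, up to 4 members of each other list with the largest ratios, called genes, and pathway genes with the most UMIs or called. Ifnar1, Ifngr1 and Ifngr2 were named in addition, after their values were seen. Some genes on these lists are not reported here. Members and lists were chosen with earlier results of these data known. Alternatives covered strata, totals, centring, thinning, cell weights, cell filters, detection at 2 UMIs, fold, UMI minimum (50), the normalized table and each library left out. The tools were matplotlib 3.10.9, pandas 2.3.3, scipy 1.17.1, numpy 2.4.6 and Python 3.11.15.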

Additional observations from a re-analysis of the deposited data

Results flagged for a closer look

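For 7 genes, library 3 lay apart from the other 3 libraries by more than Dixon's limit for 4 values, the gap to the next library divided by the whole range being 0.945 for Iigp1, 0.879 for Irf1, 0.870 for Irgm1, 0.865 for Gbp2, 0.841 for Parp9, 0.836 for Irf9 and 0.833 for Stat2. Library 3 was the highest in each. These were 7 of the 37 genes (18.9%), and the same gap with library 3 highest was found in 324 of all 8071 genes (4.01%), or in 655 (8.12%) counting any library, high or low. Chance alone marks about 1 group in 20, the libraries are not replicates of 1 labelled group, and the genes share the same 4 libraries. The low Il2ra detection (6.82% of cells) and low share of proliferating cells (0.540%) of library 3 moved with these levels, and their part in them was not tested. In the matched cells without an Il2ra UMI, library 3 was the highest for each of these genes except Irf9, which was at 188, 193, 192 and 160 CPM in libraries 1 to 4. Irgm1 was at 137, 119, 177 and 116 CPM, Parp9 at 60.1, 60.6, 88.8 and 70.2 CPM and Stat2 at 12.3, 16.3, 24.6 and 16.8 CPM in these cells, and Iigp1, Irf1 and Gbp2 had 173, 244 and 173 CPM in library 3 against 45.8 to 54.3, 123 to 173 and 51.1 to 58.8 CPM elsewhere.

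The IFIT/OAS-type sum had opposite directions between libraries in the Il2ra comparison. The log2 ratio of cells with over cells without an Il2ra UMI was -0.0888 over all libraries, but 0.14 in library 1 and -0.36 in library 3. This difference between libraries was not tested.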

How the results depend on the processing

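No paired analysis was possible because the columns carry no sample or replicate number. In the S1pr1 comparison the count of genes called higher (0) became 7 in thinned cells, 2 without the 1% of cells highest in IFIT/OAS-type genes (Ifit3 and Slfn5) and 1 with detection at 2 UMIs (Ifit1bl1), and leaving out each library gave 0 to 1 (Stat2 without library 1, Ifit1bl1 without library 4). In the Il2ra comparison, genes called higher (2) became 0 in thinned cells and at 1.5-fold, and 1 with strata of library only, without the 2% of cells with most UMIs, without proliferating, double-positive-marker or highest IFIT/OAS-type cells, and with each cell weighted alike. Leaving out each library gave 0 to 2, with 0 without library 2. Genes called lower (2) became 19 with library only, 4 with each cell weighted alike, 1 without the 2% of cells with most UMIs, and 0 without the highest IFIT/OAS-type cells, with detection at 2 UMIs and at 1.5-fold. Leaving out each library gave 1 to 4, with 4 without library 1 or 4 and 1 without library 2. With library only, the IFIT/OAS-type sum was called lower at -0.42, and Iigp1 (-0.47) and Irf1 (-0.37) turned negative.

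In the G1 comparison, genes called lower (10) became 24 with library only, 17 in thinned cells and 4 at 1.5-fold, and 10 to 14 on leaving out each library. Genes called higher (0) became 1 without the 2% of cells with most UMIs (Ifi27l2a) and 1 without proliferating cells (Parp14), and 0 to 1 on leaving out each library (Stat2 without library 1, Parp14 without library 4). The IFIT/OAS-type sum lost its call without those 2% (-0.28), without proliferating cells (-0.20) and in thinned cells (-0.40, not in 1 direction in every library). Samd9l turned to -0.39 in thinned cells. Shares held by the top 1% of cells moved to 15.1% (IFIT/OAS-type) and 7.80% (GBP/IRG-type) after thinning. The 2.49-fold library range of GBP/IRG-type genes became 2.32 without proliferating cells, 2.36 in G1 cells and 1.88 in matched cells, and the 1.38-fold range of IFIT/OAS-type genes became 1.31 in matched cells, all chosen after seeing the data. The cause of these changes was not tested, and the depth bins narrow differences in depth without removing them. Of 1702 comparison values of single genes under alternatives, 1575 kept their call or lack of one, 91 gained a call, 33 lost it and 3 were called in the opposite direction. In all, 110 changed sign, 0 of them for a gene called in the main comparison. Depth limits the rare genes: the interval of Rsad2 (356 UMIs) in the Il2ra comparison ran from -0.88 to -0.11.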
